A study of Danio rerio with 4 samples.

Results

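The ftr and btr genes are 2 large fish-expanded branches of the tripartite motif (TRIM) family, and they were followed here in single radial glia of the adult zebrafish telencephalon. Every gene symbol that starts with ftr or btr and a number was taken, which gave 89 symbols (67 ftr and 22 btr) of the 24435 symbols in the count matrices. The cells were sorted for dTomato from zebrafish aged 3 to 7 months that carried Tg[GFAP:dTomato]nns17Tg, in which a glial promoter drives a red fluorescent protein, and were made into 1 droplet library per group from 7 pooled telencephalons. The groups were uninjured, injured (3 days after a stab lesion of the telencephalon), uninjured MTZ and injured MTZ. The fish of both MTZ libraries also carried Tg[mpeg1:NTR-EYFP]w202, a nitroreductase under a macrophage and microglia promoter, and received metronidazole (MTZ), which that enzyme turns into a toxin. Strain, drug and pool therefore change together between a library with MTZ and one without, and they cannot be told apart. The titles of the samples gave the groups, because the treatment label describes a stab lesion for all 4.

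TRIM proteins carry a RING finger, 1 or more B-boxes and a coiled coil, and many of them attach ubiquitin to other proteins. The ftr genes (also called finTRIM) were first found as transcripts induced by virus in rainbow trout, and many of their products end in a B30.2 domain, which can bind other proteins. The btr genes are named after bloodthirsty, a zebrafish TRIM gene needed for the formation of red blood cells. In mammals, TRIM25 ubiquitinates the RNA sensor RIG-I upstream of type I interferon, and many other TRIM genes are themselves induced by interferon. Radial glia are the stem-like cells of the adult fish telencephalon, and the intermediate filament gene gfap and the fatty acid binding protein gene fabp7a mark them.

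The filters left 4732 of 4857 barcodes, of which 4360 (92.1%) had at least 0.2% of their unique molecular identifiers (UMIs, each standing for 1 captured RNA molecule) from fabp7a. These fabp7a cells numbered 701 in the uninjured, 1019 in the injured, 1298 in the uninjured MTZ and 1342 in the injured MTZ library, with 2794487, 4901444, 3525862 and 6197056 UMIs. All 10 radial glia markers were detected in them, with a median of 8 to 9 per cell. The other 372 cells were spread over the libraries as 26, 49, 35 and 262. Cells with at least 3 of 16 microglia or macrophage markers numbered 1, 13, 65 and 38, so both libraries labelled MTZ held more such cells than those without. The treatment is meant to remove such cells, but the cells were sorted for dTomato, so these numbers do not measure microglia in the tissue. The 65 had a median of 601 UMIs, against 6363 and 7769.5 in those of the injured and injured MTZ libraries. In the uninjured MTZ library 43 of them lay among the fabp7a cells, and in the injured library 7. A total of 12 barcodes occurred in more than 1 library, and no library comparison below moved past its counting interval without them or without the microglia-marked cells. Each group had 1 library, so no test between groups was possible: the intervals given are 95% intervals for counting error, and they hold no spread between fish. Those of levels and ratios hold no spread between cells either, so they can be too narrow.

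Most ftr and btr genes were rare or undetected in radial glia. Of the 89, 16 had no UMI in any kept cell and 20 had none in fabp7a cells. Another 39 had 1 to 19 UMIs over the fabp7a cells of the 4 libraries, and 30 (24 ftr and 6 btr) had 20 or more. The whole set gave 2843 UMIs, or 163 UMIs in every 1000000 (CPM), and the 6 most abundant genes (ftr67, ftr90, ftr43, ftr93, ftr14 and btr09) held 54.2% of them. The undetected genes were btr01, btr02, btr22, btr30, ftr01, ftr07, ftr08, ftr10, ftr14l, ftr26, ftr54, ftr55, ftr66, ftr69, ftr87 and ftr99. Reads were counted near the 3′ end, so that levels are compared between libraries and not between genes. A gene at 0 here is one whose level lay under 3 counts, which is 1.07, 0.612, 0.851 and 0.484 CPM in the fabp7a cells of the uninjured, injured, uninjured MTZ and injured MTZ libraries.

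Summed over all 89 genes, the level in fabp7a cells was 142 CPM in the uninjured library (95% interval 128 to 156) and 257 CPM in the injured library (243 to 271). In the uninjured MTZ library it was 98.4 CPM (88.3 to 109), and in the injured MTZ library 136 CPM (127 to 145). The injured library was the highest of the 4, the uninjured MTZ library was the lowest, and the uninjured and injured MTZ libraries overlapped in their intervals. The btr genes alone summed to 13.6, 41.2, 6.24 and 18.4 CPM in the same order of libraries, and the ftr genes to 128, 216, 92.2 and 117 CPM. A UMI of at least 1 ftr or btr gene was present in 34.5% of the uninjured, 44.3% of the injured, 21.5% of the uninjured MTZ and 36.7% of the injured MTZ fabp7a cells. Median depth differed between these libraries (3382, 3935, 2606.5 and 4122 UMIs per cell). With every cell thinned to 1000 UMIs, which left out 35, 42, 405 and 65 cells that were shallower, the shares were 12.5%, 17.9%, 8.96% and 11.4%.

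ftr67 (ENSDARG00000098820) had the most UMIs of the family and followed an order of its own. It measured 45.4 CPM in the uninjured library, 25.9 in the injured, 32.0 in the uninjured MTZ and 24.9 in the injured MTZ library, from 127, 127, 113 and 154 UMIs. It was therefore lower in the injured library than in the uninjured one, by a log2 ratio of -0.81 (-1.18 to -0.44). With MTZ the ratio was -0.37 (-0.73 to -0.00), whose interval reached 0 when the libraries were scaled by TMM (a trimmed mean over genes) or when each gene was counted at most once per cell.

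The other abundant ftr genes were highest in the injured library. ftr90 measured 5.37, 32.8, 9.08 and 17.9 CPM in the uninjured, injured, uninjured MTZ and injured MTZ libraries, from 15, 161, 32 and 111 UMIs. ftr43 (ENSDARG00000076106) measured 8.95, 19.2, 8.51 and 15.2 CPM from 25, 94, 30 and 94 UMIs. Both were higher in each injured library than in either uninjured one. ftr93 (ENSDARG00000039852) measured 9.66, 22.6, 1.99 and 7.26 CPM from 27, 111, 7 and 45 UMIs, so that the injured MTZ library lay below the uninjured library without MTZ. ftr14 (ENSDARG00000053293) measured 6.08, 20.2, 3.40 and 4.2 CPM from 17, 99, 12 and 26 UMIs, and stood out in the injured library without MTZ.

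The next genes in order of UMIs had fewer counts and wider intervals. btr09 (ENSDARG00000054805) measured 3.58 CPM in the uninjured library (10 UMIs), 16.1 in the injured (79 UMIs), 0.567 in the uninjured MTZ (2 UMIs, under the floor of 3) and 3.87 in the injured MTZ library (24 UMIs). Those UMIs came from 7, 56, 2 and 19 cells, or 0.999%, 5.50%, 0.154% and 1.42% of the fabp7a cells. At 1000 UMIs per cell the shares were 0.150%, 1.13%, 0% and 0.235%. The injured library was thus the only one in which more than 2% of the fabp7a cells had a btr09 UMI. ftr36 ran the other way, with 9.66 CPM in the uninjured library and 4.49, 3.69 and 5.0 CPM in the injured, uninjured MTZ and injured MTZ libraries. btr04 measured 6.44, 5.92, 2.55 and 3.71 CPM, from 9 to 29 UMIs per library. ftr56 (ENSDARG00000030954) measured 2.15, 7.14, 2.55 and 4.36 CPM, and ftr50 measured 3.94, 6.12, 1.99 and 4.03 CPM, each highest in the injured library.

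**Figure D1:**
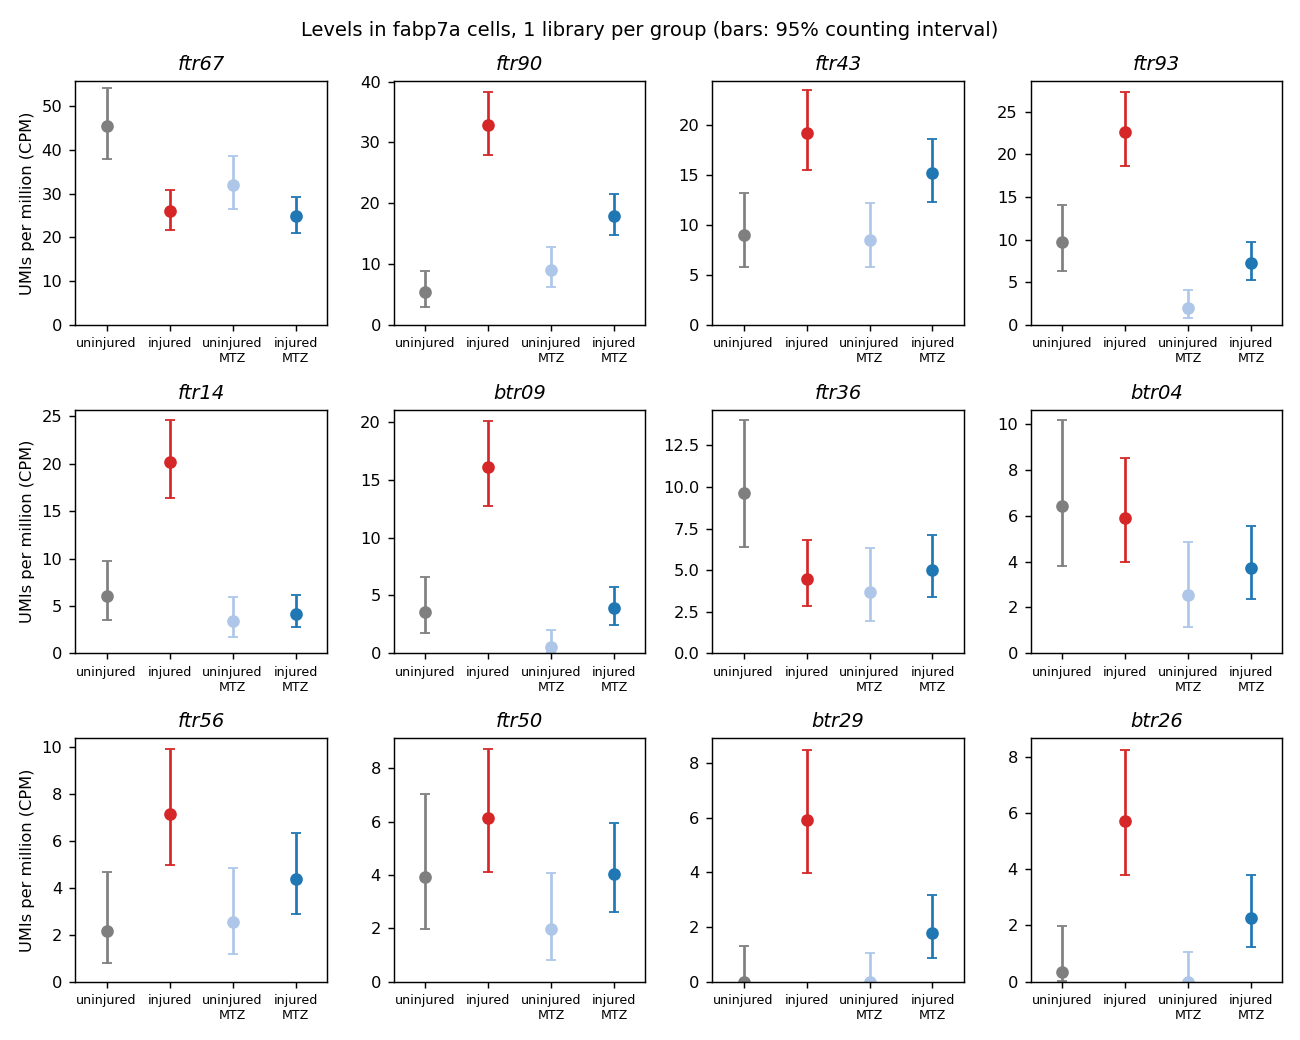
Level in fabp7a cells (CPM, each panel with its own axis) of the 10 ftr and btr genes with the most UMIs, btr09 among them, and of btr29 and btr26, in each of the 4 libraries; bars are 95% counting intervals. ftr90 and btr09 peak in the injured library at 32.8 and 16.1 CPM, while ftr67 is highest in the uninjured library at 45.4 CPM.

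Some symbols stand for several gene identifiers, and close copies in these families can share reads, so that the split between copies is uncertain. The 89 symbols covered 103 identifiers, and 11 of the symbols had more than 1. ftr90 was the sum of 3: ENSDARG00000097373 with 15, 118, 26 and 87 UMIs in the 4 libraries, ENSDARG00000097679 with 0, 39, 5 and 19, and ENSDARG00000040536 with 0, 4, 1 and 5. A current table of gene names calls the last 2 ftr88 and ftr89, and the first 2 had their highest count relative to depth in the injured library, while the last had 5 UMIs or fewer in each. ftr36 rested almost wholly on ENSDARG00000111722, which that table does not name, with 27, 22, 13 and 29 UMIs. How many reads went to the wrong copy was not tested.

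The injured library was compared with the uninjured one to see which of these genes differ 3 days after a lesion. The summed level was higher after injury by a log2 ratio of 0.86 (0.69 to 1.02), beside a median of -0.19 over the 12135 genes of the matrices that had 20 UMIs in this pair of libraries. Of the 89 ftr and btr genes, 21 had 20 UMIs there; 12 (57.1%) were at least 2-fold higher in the injured library, beside 7.61% of all genes and 8.71% of those no more abundant than the most abundant ftr or btr gene. At least 2-fold lower were 2 (9.52%), beside 7.56% of all genes and 9.19% of the less abundant ones, a share near the background. Of the 21, 14 reached 20 UMIs in the injured library alone and none in the uninjured library alone. Among the 12 higher genes only ftr43 and ftr93 reached 20 UMIs in each library. The rest of the 12 reached it in the injured library alone, so that the share of 57.1% comes mostly from genes that passed the filter through the library where they were high. The median log2 ratio of the 21 was 1.23. The counting interval lay above 0 for 13, below 0 for 3 and held 0 for 5, and in 15 of the 21 a single cell held over 10% of the UMIs of 1 library.

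The highest ratios belonged to genes that were close to absent without injury. btr29 (ENSDARG00000099138) had 0 UMIs in the uninjured library and 29 in the injured one, which makes it at least 5.51-fold higher against a floor of 3 counts per library. btr26 (ENSDARG00000105241) went from 1 to 28 UMIs, a log2 ratio of 4.0 (1.40 to 9.35), and ftr53 from 1 to 22 UMIs, a ratio of 3.65 (1.02 to 9.02). Where the uninjured library had 1 to 3 UMIs, 1 cell held all or 33.3% of them, and the size of these ratios is accordingly loose. ftr90, summed over its identifiers, had the highest ratio among the abundant genes, at 2.61 (1.85 to 3.48). Its identifier ENSDARG00000097373 alone went from 5.37 to 24.1 CPM, and ENSDARG00000097679 from 0 to 7.96 CPM. ftr22 followed at 2.56 (0.88 to 4.91), from 3 and 31 UMIs, and btr09 stood at 2.17 (1.22 to 3.29). Lower after injury were ftr51, at -2.13 (-3.79 to -0.69) from 15 and 6 UMIs, and ftr36, at -1.11 (-1.99 to -0.24). The zebrafish gene ftr83, reported to raise type I interferon and to limit viral infection in that species, measured 4.65 CPM without and 5.71 CPM with injury, a ratio of 0.30 (-0.70 to 1.37) that held 0.

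Between the MTZ libraries the injured one was again higher, over fewer genes. The summed level was higher by a log2 ratio of 0.46 (0.28 to 0.65), with a median over all genes of -0.02. Of 15 genes with 20 UMIs, 3 (20%) were at least 2-fold higher, beside 6.4% of all genes and 7.99% of those within the range of abundance of the family. At least 2-fold lower was 1 (6.67%), beside 7.53% and 10.3%. The higher genes were btr09, at 2.77 (0.76 to 5.90) from 2 and 24 UMIs, ftr93, at 1.87 (0.71 to 3.26), and ftr50, at 1.02 with an interval that held 0 (-0.23 to 2.48). ftr90 stood at 0.98 (0.40 to 1.60) and ftr43 at 0.83 (0.23 to 1.48), just under 2-fold with intervals above 0. btr09, ftr93 and ftr50 each passed 20 UMIs in the injured MTZ library alone, as did 8 of the 15 in all. The share of 20% therefore comes from genes that had to be high there to be counted. ftr24 was lower, at -1.81 (-3.36 to -0.41) from 14 and 7 UMIs. btr29 and btr26 had no UMI in the uninjured MTZ library and 11 and 14 in the injured MTZ library, too few to be counted. The summed ratios with and without MTZ, 0.46 and 0.86, had intervals that did not overlap, but the difference between them was not tested for lack of replicate libraries. Without the fabp7a cells that held 1% or more of their UMIs from interferon response genes, they were 0.29 (0.10 to 0.48) and 0.26 (0.08 to 0.44).

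**Figure D2:**
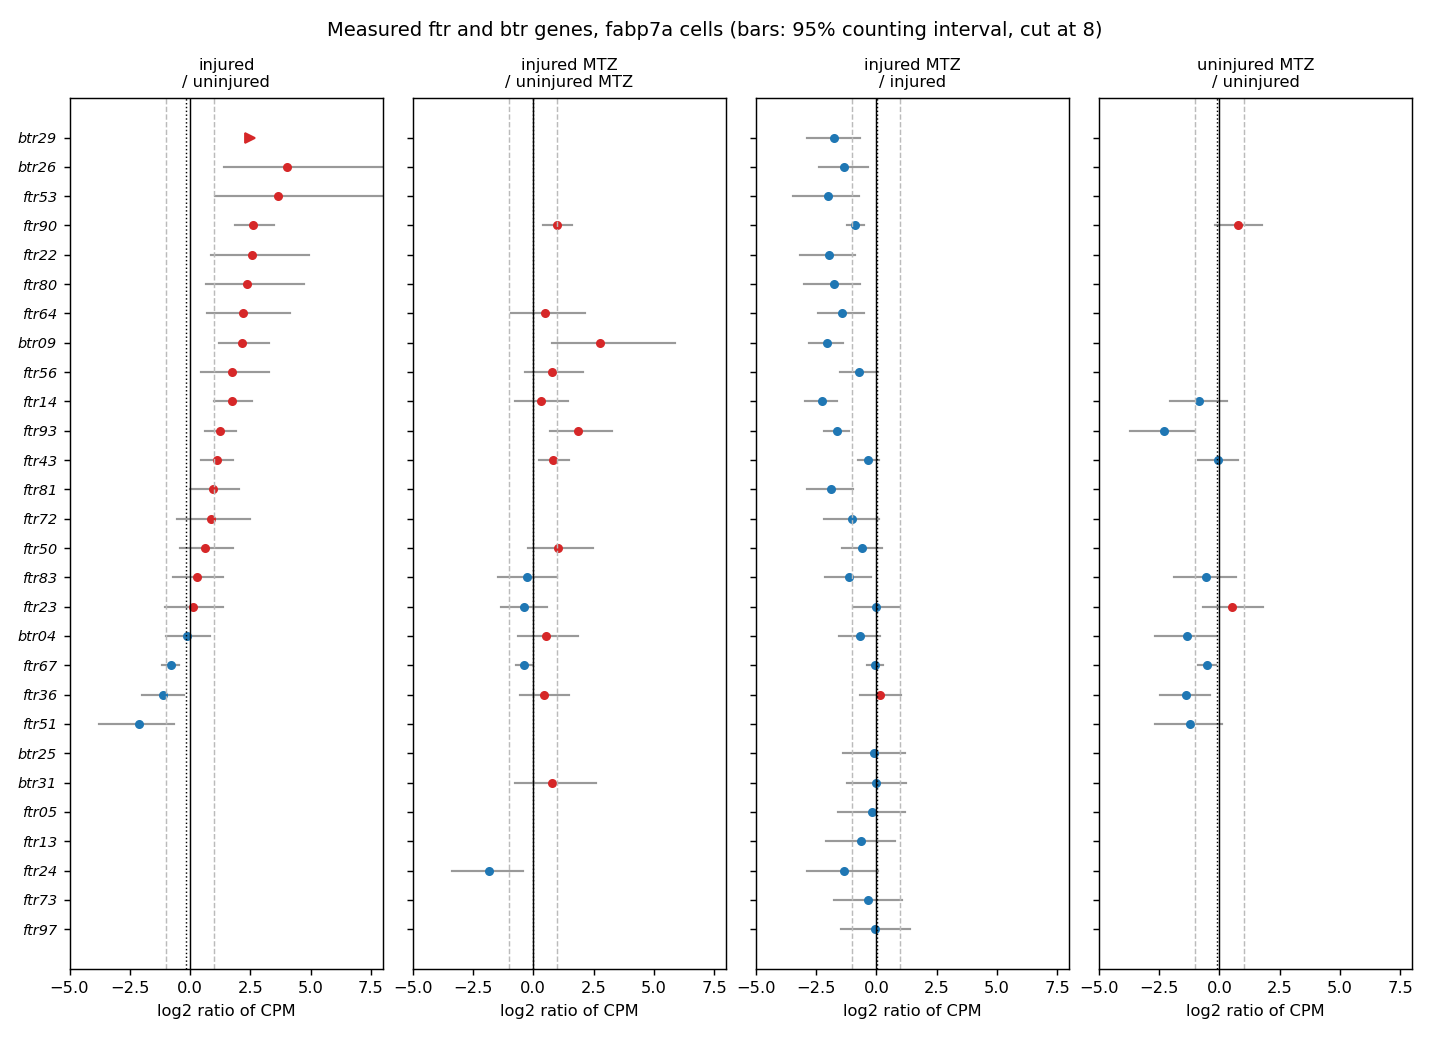
Log2 ratio of CPM in fabp7a cells for each ftr and btr gene that reached 20 UMIs in the pair of libraries named above a panel; bars are 95% counting intervals cut off at 8, the triangle is the lower bound of btr29, dashed lines mark 2-fold and the dotted line the median of all genes. In the injured against uninjured panel 12 of 21 genes lie at or above 1, and in the injured MTZ against injured panel 13 of 27 lie at or below -1 and none at or above 1.

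The injured MTZ library was compared with the injured one, and here the family was lower. The summed level differed by a log2 ratio of -0.92 (-1.05 to -0.79), beside a median over all genes of 0.01. Of 27 genes with 20 UMIs, 13 (48.1%) were at least 2-fold lower in the injured MTZ library, beside 6.16% of all genes and 8.4% of those within its range of abundance. None was 2-fold higher, beside 2.88% and 3.91%. Of the 27, 8 reached 20 UMIs in the injured library alone, ftr53, ftr22 and ftr81 among them. All 8 were among the 13 lower genes, and they could be counted because they were high there. ftr14 had the lowest ratio, -2.27 (-2.95 to -1.63), followed by btr09 at -2.06 (-2.78 to -1.38), ftr53 at -1.99 (-3.46 to -0.71), ftr22 at -1.97 (-3.16 to -0.91) and ftr81 at -1.89 (-2.88 to -0.98). ftr67, ftr36 and ftr43 did not follow: their ratios were -0.06 (-0.41 to 0.29), 0.16 (-0.68 to 1.01) and -0.34 (-0.77 to 0.09). The injured library enters this comparison and that with the uninjured library, so that a high value there makes a gene appear in both.

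Without injury the MTZ library was lower too. The summed log2 ratio of the uninjured MTZ to the uninjured library was -0.53 (-0.74 to -0.31), with a median over all genes of -0.11. Only 10 ftr and btr genes had 20 UMIs, of which 4 (40%) were at least 2-fold lower, beside 6.36% of all genes and 7.97% of those within its range of abundance. None was 2-fold higher, beside 4.18% and 5.39%. Of the 4, ftr93 and ftr36 reached 20 UMIs in the uninjured library alone, and at 50 UMIs in the pair of libraries none was 2-fold lower. The lower ones were ftr93 at -2.28 (-3.73 to -1.05), ftr36 at -1.39 (-2.47 to -0.39), btr04 at -1.34 (-2.67 to -0.11) and ftr51 at -1.24, whose interval held 0 (-2.69 to 0.09). ftr90 leaned the other way, at 0.76, with an interval that held 0 (-0.17 to 1.75).

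Cells with UMIs of several ftr and btr genes were most frequent in the injured library. At least 2 different genes of the family had a UMI in 11.3% of the uninjured, 23.6% of the injured, 3.47% of the uninjured MTZ and 11.3% of the injured MTZ fabp7a cells. At least 3 were found in 2.71%, 12.9%, 0.308% and 3.58%. After thinning to 1000 UMIs per cell, at least 2 were found in 1.05%, 3.89%, 0.224% and 1.1%, so the injured library kept the highest share at equal depth. Thinning evens out depth but not the summed level, which was also highest in that library. Whether these genes share cells more often than their levels alone would give was not tested. The cell with the most held 14 different ftr and btr genes in the injured library, against 6, 4 and 10 in the uninjured, uninjured MTZ and injured MTZ libraries. That cell of the injured library had 19 ftr and btr UMIs of 11632 in all, and 3.21% of its UMIs came from a list of interferon response genes.

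**Figure D3:**
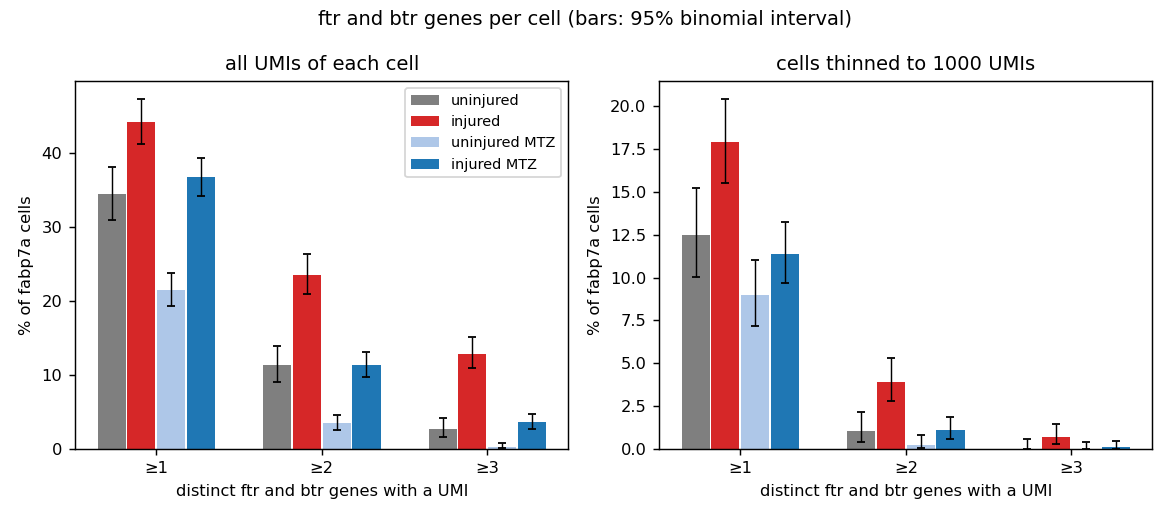
Share of fabp7a cells (percent) with a UMI of at least 1, 2 or 3 different ftr and btr genes in the 4 libraries, at full depth and after thinning each cell to 1000 UMIs; bars are 95% binomial intervals. The injured library is highest in each set of bars, at 44.3%, 23.6% and 12.9% at full depth.

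Known interferon response genes were also higher in each injured library than in the matching uninjured one, and again highest in the injured and lowest in the uninjured MTZ library. They summed to 1033, 4958, 912 and 2546 CPM in the uninjured, injured, uninjured MTZ and injured MTZ libraries. The injured MTZ library thus lay above the uninjured one, where the ftr and btr sums overlapped. The btr genes alone had the order of the interferon list, at 13.6, 41.2, 6.24 and 18.4 CPM. Their intervals overlapped between the uninjured and injured MTZ libraries. ftr67, the most abundant gene of the family, had 45.4 CPM in the uninjured and 24.9 CPM in the injured MTZ library. Of 30 listed genes, such as the antiviral enzyme gene rsad2 and the ubiquitin-like modifier isg15, 29 were found and 24 had 20 UMIs in the injured and uninjured libraries. At least 2-fold higher after injury were 22 of the 24 (91.7%), beside 7.61% of all genes. None was lower, beside 7.56%, and the median log2 ratio was 3.05. In the MTZ libraries 21 of 25 (84%) were higher after injury, beside 6.4% of all genes. Many of the higher genes, ifit8, mxa and usp18 among them, had under 20 UMIs in the uninjured library of the pair. Such genes were counted through the injured library, where they were high. In the injured MTZ library 14 of 25 (56%) were lower than in the injured one, beside 6.16%. Without injury 1 of 15 was higher and 1 lower with MTZ (6.67% each), beside 4.18% and 6.36% of all genes. There the median log2 ratio of the list was -0.20, while 4 of 10 ftr and btr genes were lower. The fabp7a cells were then divided by the share of their UMIs that came from these 29 interferon response genes, none of which is an ftr or btr gene. The division at 1% marks a range of a score and not a cell type: 57 injured and 29 injured MTZ cells lay between 0.8% and 1.2%. At or above 1% were 5 uninjured, 106 injured, 5 uninjured MTZ and 37 injured MTZ cells.

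Within the injured library, the cells at or above 1% had 843 CPM of ftr and btr UMIs against 167 CPM in the rest, a log2 ratio of 2.33 (2.17 to 2.50). They held 43.6% of the ftr and btr UMIs and 13.3% of all UMIs. In the injured MTZ library the levels were 663 and 119 CPM, a ratio of 2.48 (2.19 to 2.75), with 15.0% of the ftr and btr UMIs in cells that held 3.07% of all. Median depth was 4991.5 UMIs at or above 1% and 3882 below it in the injured library, and 5066 and 4103 in the injured MTZ library. Of 18 genes with 20 UMIs in the injured library, 13 were at least 2-fold higher in the cells at or above 1%, beside 7.24% of all genes outside the list, and 1 was lower, beside 14.2%. In the injured MTZ library 6 of 11 were higher, beside 10% of all genes outside the list, and 1 was lower, beside 24%. The 20 UMIs were summed over the cells at or above 1% and the rest. Of the higher genes in the injured library, btr29, btr26, ftr53, ftr56, ftr64, ftr22 and ftr80 had under 20 UMIs in the rest. Among those of the injured MTZ library btr09 and ftr56 did. These genes were thus counted only with UMIs of the cells where they were high. The lower genes rested on few UMIs: ftr83 had 1 against 27 in the injured library, and ftr50 had 0 against 25 in the injured MTZ library.

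The genes differed in how far they followed the interferon list within the injured library. ftr90 measured 134 CPM in cells at or above 1% and 17.4 CPM in the rest, ftr93 measured 92.1 and 12.0, and ftr14 measured 81.3 and 10.8. btr09 measured 64.5 and 8.71 CPM, a log2 ratio of 2.89 (2.22 to 3.57), with a UMI in 24.5% of the cells at or above 1% and in 3.29% of the rest. btr29 measured 33.8 and 1.65 CPM, a ratio of 4.36, and the ratios of ftr56 and ftr53 were 3.83 and 3.80. Of the 10 genes with the most UMIs, 4 stayed under 2-fold: ftr67, at 23.0 and 26.4 CPM, had a ratio of -0.20, and ftr36, btr04 and ftr50 had ratios of 0.04, 0.44 and 0.71. ftr43 was mixed, with a ratio of 1.82 in the injured library and one of -0.54 that held 0 in the injured MTZ library (-3.61 to 1.35). ftr36 was mixed too, with a ratio of 1.76 in the injured MTZ library that held 0 (-0.60 to 3.46), from 3 and 28 UMIs. It was among the 6 genes called higher there, of which 5 had intervals above 0.

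**Figure D4:**
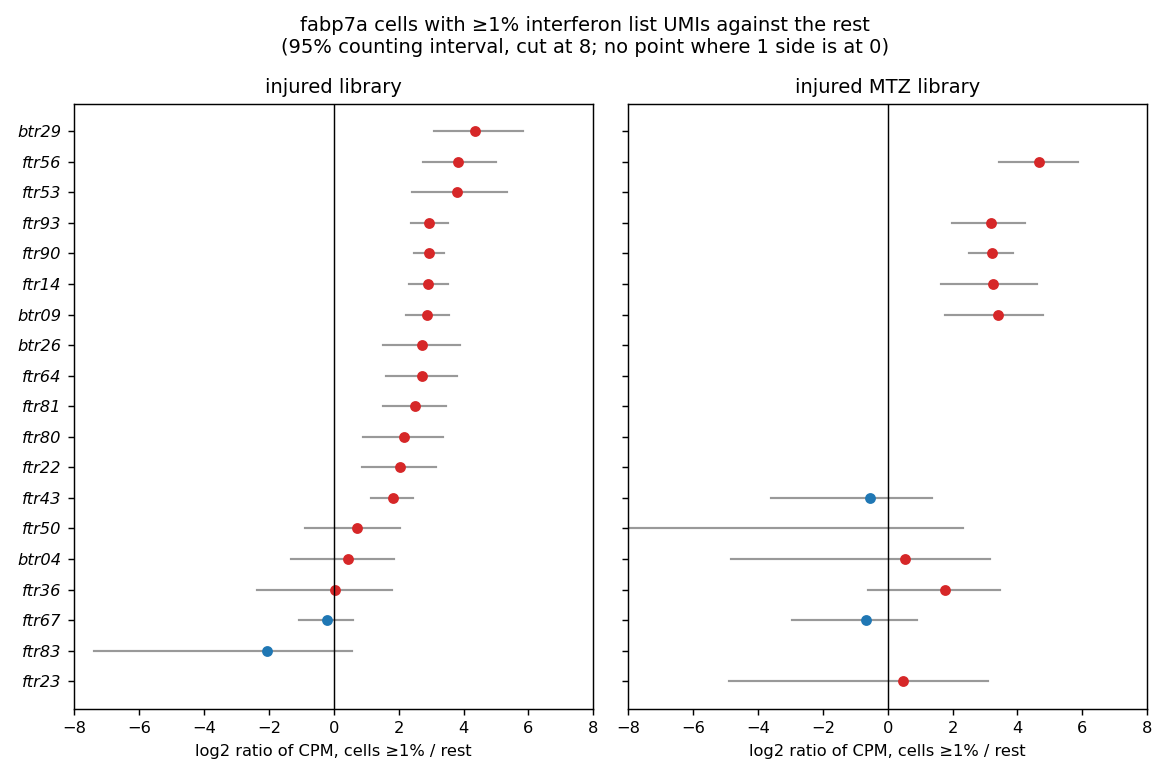
Log2 ratio of CPM between fabp7a cells with at least 1% of their UMIs from interferon response genes and the other fabp7a cells, for each ftr and btr gene shown, in the injured and the injured MTZ library; bars are 95% counting intervals cut off at 8, and genes with 0 UMIs on 1 side have no point. In the injured library btr29 and btr09 lie at 4.36 and 2.89, and ftr67 lies at -0.20.

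The summed level differed by interferon share below 1% as well. In the injured library the summed level was 93.6 CPM in cells under 0.1% interferon list UMIs, 135 CPM from 0.1% to 0.3%, 301 CPM from 0.3% to 1% and 843 CPM above. The uninjured library gave 116, 172 and 259 CPM in the lower 3 ranges, where its top range held only 5 cells, and the injured MTZ library gave 78.3, 101, 222 and 663 CPM. The uninjured MTZ library gave 93.3, 99.7 and 192 CPM in the lower 3 ranges. At equal interferon share below 1%, the uninjured and injured libraries were thus closer together than in their totals. Under 0.3% the injured library was the lower one. From 0.3% to 1% it was the higher one, beside only 21 uninjured UMIs (160 to 396 CPM). In each of these ranges their intervals overlapped. From 0.1% to 0.3% the overlap was narrow, with 147 to 199 CPM uninjured and 118 to 153 CPM injured. No ratio with its interval is given within a range, so overlap alone does not show equal levels. btr09 in the injured library went from 0.767 through 5.0 and 23.6 to 64.5 CPM, while ftr67 stayed between 22.7 and 28.3 CPM. Without the cells at or above 1%, the summed log2 ratio of the injured to the uninjured library was 0.26 (0.08 to 0.44) in place of 0.86. At least 2-fold higher were 4 of 13 genes in place of 12 of 21, with no share of all genes given for that setting. The ratio of btr09 without those cells was 1.28 in place of 2.17. That alternative was chosen after the values had been seen.

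**Figure D5:**
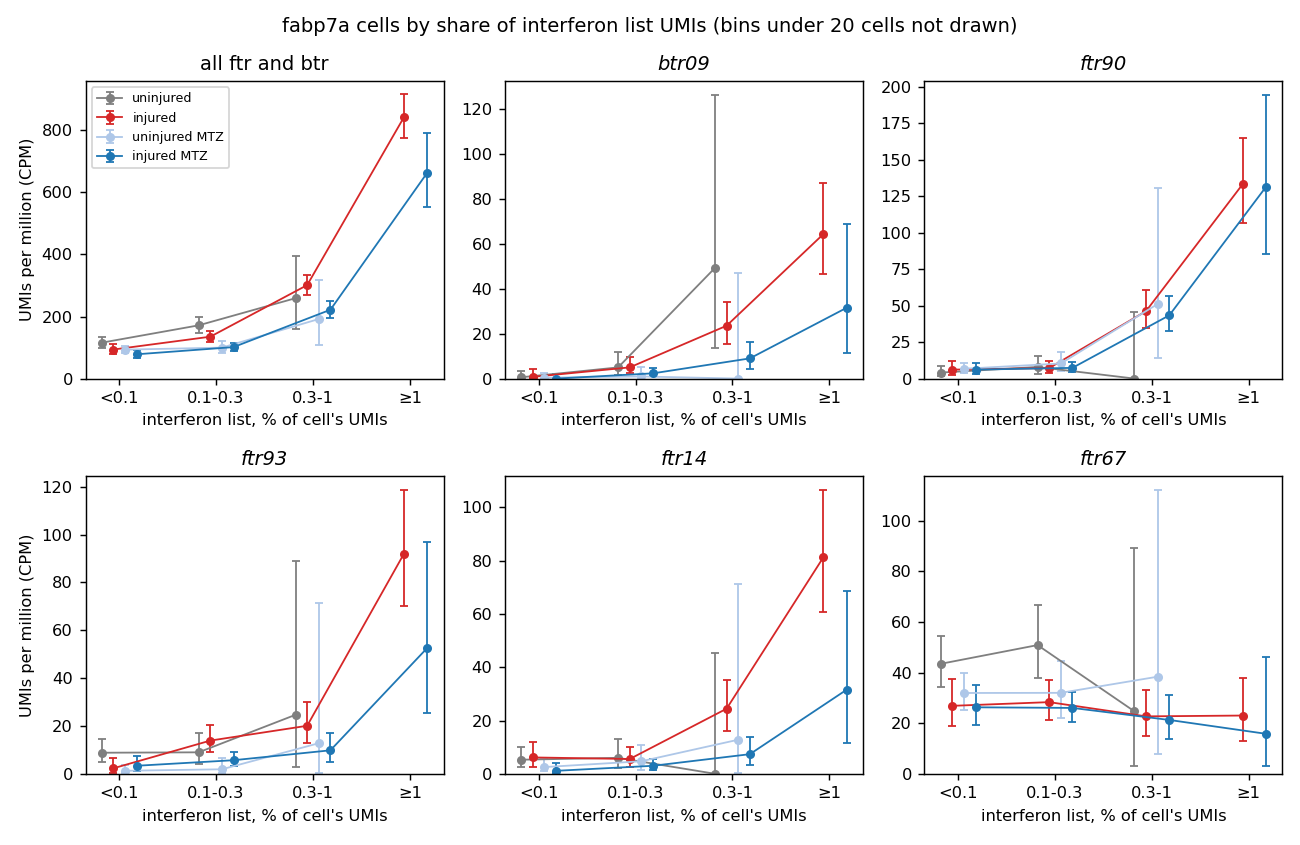
Level (CPM, each panel with its own axis) of all ftr and btr genes summed and of single genes in fabp7a cells grouped by the share of their UMIs from interferon response genes, by library; bars are 95% counting intervals, and ranges with fewer than 20 cells are not drawn. The summed level climbs from 93.6 to 843 CPM in the injured library, and ftr67 stays between 22.7 and 28.3 CPM.

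The other cells of the libraries were few, and ftr and btr UMIs were counted in them too. At least 3 radial glia markers were found in 18 of the 26, 29 of the 49, 32 of the 35 and 78 of the 262 other cells, and free RNA in the droplets was not measured, so the source of these UMIs was not tested. Summed over the 89 genes, the other cells had 70.7 CPM in the uninjured library (8 UMIs), 143 in the injured (53 UMIs), 133 in the uninjured MTZ (7 UMIs) and 85.8 in the injured MTZ library (98 UMIs). The log2 ratio of fabp7a to other cells was 1.0 (0.01 to 2.23), 0.84 (0.45 to 1.27), -0.43 (-1.49 to 0.89) and 0.66 (0.36 to 0.98). Fabp7a cells were thus higher in 3 libraries, while the interval of the uninjured MTZ library held 0. btr09 had 10 UMIs in fabp7a and 0 in other cells of the uninjured library, where the interval began at -3.46 and held 0. Its ratios in the injured and injured MTZ libraries, 1.58 (-0.32 to 4.65) and 0.56 (-1.16 to 2.93), held 0. In the uninjured MTZ library it had 2 UMIs in fabp7a and 1 in other cells. The ratio there was -5.07 (-9.33 to 0.82), which held 0 too.

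For single genes the other cells gave few counts. Over the 4 libraries, ftr13, ftr53, ftr57, ftr72 and ftr73 had 25, 31, 21, 41 and 22 UMIs in fabp7a cells and none in other cells, where so few UMIs were sampled that the counting interval held equal levels for each of these genes in each library that had its UMIs. The lowest ratios of fabp7a to other cells belonged to btr29, at a log2 ratio of -1.92 within libraries from 40 UMIs in fabp7a and 16 in other cells, and btr31, at -1.76 from 33 and 13 UMIs. Next in order came ftr22 at -0.24 and btr26 at -0.13, and ftr64 at 0.34, which is on the fabp7a side. Within the injured library btr29 measured 5.92 CPM in fabp7a cells and 21.6 CPM in other cells, a ratio of -1.87 (-3.03 to -0.53). The other cells gave only 8 btr29 UMIs. All 17 btr UMIs found in them came from 8 cells, and 1 cell held 6, so few cells carry this ratio. In the injured MTZ library btr29 stood at -1.98 and btr31 at -1.99 (-3.21 to -0.73).

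Ftr and btr UMIs were also counted in cells with other markers, part of them fabp7a cells, where free RNA was likewise not measured. The 117 cells with at least 3 microglia or macrophage markers had 210 CPM (170 to 257) and 8 btr09 UMIs, or 17.7 CPM. By library, those of the injured, uninjured MTZ and injured MTZ libraries had 395, 127 and 154 CPM, so the pooled level mixes libraries. The 176 cells with at least 3 of 13 markers of mature neurons had 91.7 CPM (72.1 to 115), and 24.4% of them had an ftr or btr UMI at a median of 3468.5 UMIs per cell. No btr09 UMI was found in these neuron-marked cells: 0 of 176 allows a share of cells with a UMI of up to 1.70%, taken as 3 in 176. Of the 176, 141 came from the injured MTZ library, where they had 72.2 CPM. Those of the uninjured, injured and uninjured MTZ libraries had 122, 149 and 166 CPM. In the injured MTZ library 0 of 141 allows up to 2.13%, taken as 3 in 141, above the 1.42% of fabp7a cells with a btr09 UMI there. Cells with ciliated cell markers (108) had 163 CPM and those with cycling markers (229) had 142 CPM, pooled over the libraries. Most cells of both sets were fabp7a cells themselves. Among the ciliated-marked cells these numbered 12, 44, 17 and 32 in the uninjured, injured, uninjured MTZ and injured MTZ libraries. Among the cycling-marked cells they numbered 18, 78, 21 and 91 in the same order. By library the cycling cells had 123, 166, 62.7 and 132 CPM in the uninjured, injured, uninjured MTZ and injured MTZ libraries. The 166 CPM (141 to 193) of the injured library lay below the 257 CPM (243 to 271) of its fabp7a cells. Elsewhere their intervals held the fabp7a level, as did those of the ciliated cells in each library, at 134, 218, 143 and 101 CPM. Each set is thus compared with a level that includes most of its own cells. The summed microglia list in fabp7a cells was 8.23, 318, 305 and 49.4 CPM in the uninjured, injured, uninjured MTZ and injured MTZ libraries. The injured library was the highest for this list as for the ftr and btr genes, and the order of the rest differed. The part of microglia RNA in the results was not tested beyond leaving out the marked cells.

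The TRIM genes outside the ftr and btr branches were called about as often as all genes. Of 64 such genes, 24 had 20 UMIs in the injured and uninjured libraries, of which 2 (8.33%) were at least 2-fold higher and 2 (8.33%) lower, beside 7.61% and 7.56% of all genes. The higher ones were trim8a, at a log2 ratio of 1.17, and trim35-14, at least 6.08-fold higher with 28.1% of its UMIs in 1 cell. The lower ones were trim35-39 at -1.31 and trim35-40 at -1.40. With MTZ none of 23 was higher, beside 6.4% of all genes, and 2 (8.70%) were lower, beside 7.53%. In the RIG-I pathway, the cytoplasmic RNA sensing route to interferon, 5 of 11 genes with 20 UMIs (45.5%) were at least 2-fold higher after injury, beside 7.61% of all genes. With MTZ 4 of 11 (36.4%) were, beside 6.4%. Of those higher without MTZ, dhx58, ifih1, traf3 and irf3 had under 20 UMIs in the uninjured library. They were thus counted through the library where they were high. With MTZ the same held for dhx58, ifih1 and traf3. The RNA sensor gene dhx58 stood at 6.63 (5.40 to 8.25) without and 3.39 (2.52 to 4.41) with MTZ, and the sensor gene ifih1 at 2.65 (1.88 to 3.52) and 2.25 (1.45 to 3.16). The transcription factor gene irf7 stood at 3.15 (2.60 to 3.76) and 1.77 (1.14 to 2.46), so that these 3 had intervals above 0 in both comparisons. All 3 are in the interferon list as well, so they are not separate from that result. irf3 stood at 2.0 (0.48 to 3.97) without MTZ and at -0.40 with it, where the interval held 0 (-1.57 to 0.81). The adaptor gene traf3 stood at 1.39 without MTZ, with an interval that held 0 (-0.04 to 3.14) and 60% of its 5 uninjured UMIs in 1 cell, and at 2.77 (0.76 to 5.90) with MTZ. The ubiquitin ligase gene trim25 measured 35.1 CPM in the uninjured and 69.6 CPM in the injured library, a ratio of 0.99 (0.66 to 1.33). With MTZ it measured 34.3 and 38.7 CPM, a ratio of 0.17 (-0.15 to 0.50) that held 0.

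Many ftr and btr genes lie side by side in the genome, and the summed levels of such runs were not all higher after injury. In the gene order of a RefSeq assembly (GRCz12tu) that is not the one behind the counts, 73 of the 89 were found, and 30 of them fell into 6 runs of at least 3 with no more than 5 other genes between neighbours. The run of btr23, btr24, btr25 and btr26 measured 1.07 CPM in the uninjured and 8.57 CPM in the injured library, a log2 ratio of 3.00 (1.35 to 5.33). With MTZ its ratio was 4.04, from 1 and 29 UMIs. btr26 and btr25 gave 28 and 11 of the 42 UMIs of this run in the injured library. The run of ftr76, ftr73, ftr72 and ftr91 stood at 1.60 (0.61 to 2.74) without and at 0.89 (-0.30 to 2.24) with MTZ, where the interval held 0. The run of ftr19, ftr05, ftr22, ftr23, ftr24 and ftr26 stood at 0.94 (0.24 to 1.70) without and at -0.48 (-1.09 to 0.14) with MTZ. The sum of the 9 genes in the run around ftr36 stood at -0.77 (-1.5 to -0.03) without and at 0.23 (-0.65 to 1.16) with MTZ. ftr36 itself gave 27 of the 33 uninjured and 22 of the 34 injured UMIs of that run, and the other members had 3 UMIs or fewer per library. Genes were placed in runs by symbol, and these ftr36 UMIs came from ENSDARG00000111722, which the table of gene names does not name. Whether that identifier lies in this run was not tested. The run of ftr02, ftr06 and ftr07 had 3 and 2 UMIs, too few to compare, and the run of btr04 to btr07 was level, at -0.07 (-0.96 to 0.86).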

How the data were processed

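Counts are the UMI counts per gene and cell that the authors deposited as 1 filtered matrix per library (Chromium v3 kit). Cell Ranger 3.1.0 and GRCz11 are named in the submitters' processing notes, while the deposited matrices' headers give version 4.0.0; the annotation release was not given in the sources used here. Barcodes under 300 detected genes or over 25% mitochondrial UMIs were dropped, and 51 doublets were removed with Scrublet in scanpy 1.11.5. Rows that share a symbol were summed. Levels are UMIs of the summed cells in every 1000000, with exact Poisson intervals. Ratios have exact conditional binomial intervals and shares have Clopper-Pearson intervals (scipy 1.17.1), each at 95% and for counting error only. The steps were tested on simulated counts. Alternative size factors came from TMM (edgeR 4.0.16). Genes were compared from 20 UMIs in the 2 libraries. Genes described are btr09, the 10 with the most UMIs and, per comparison, up to 5 at each end past 2-fold; ftr83, ftr43 and others beside them were named after their values were seen. The set of genes and all lists were chosen with earlier results of these data known. The neuron, microglia, interferon and TRIM lists come from general knowledge. Of the 103 identifiers, 98 were found in the table of current gene names, 85 with the same symbol.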

Additional observations from a re-analysis of the deposited data

How the results depend on the processing

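No result whose interval lay off 0 reversed its direction. No paired analysis was possible because each group had 1 library. The summed log2 ratio of the injured to the uninjured library, 0.86, was 1.04 with TMM size factors, 1.04 with each gene counted at most once per cell and 0.26 without the fabp7a cells at 1% or more interferon list UMIs. That of the injured MTZ to the injured library, -0.92, was -0.49 without those cells, and that of the injured MTZ to the uninjured MTZ library, 0.46, was 0.66 with each gene counted once per cell. The ratio of fabp7a to other cells in the injured MTZ library, 0.66, was 1.08 without cells holding at least 3 microglia markers, and the cause was not tested. The other 112 such values moved by less than their counting interval, or were counts within 1.5 times, also under other cell filters, with fabp7a shares of 0.1% or 0.5% and without shared barcodes. Without the interferon cells, ftr90 after injury was 1.69 in place of 2.61 and ftr93 0.36 in place of 1.23. In the injured MTZ against the injured library without those cells, ftr90 was -0.28 in place of -0.87, ftr93 -1.04 in place of -1.64 and ftr43 0.09 in place of -0.34. ftr67 after injury was -0.41 with each gene counted once per cell. The 12 genes at least 2-fold higher after injury were 4 without the interferon cells and 5 of 7 at 50 UMIs. The 2 lower were 1 with TMM, 0 once per cell, 1 without the interferon cells, 0 at 50 UMIs and 4 with 1 UMI in each library. The 13 lower in the injured MTZ than in the injured library were 8, 4 and 21 without the interferon cells, at 50 UMIs and with 1 UMI in each. Between the MTZ libraries the 3 higher were 1 at 50 UMIs and 10 with 1 UMI in each, and the 1 lower was 0 and 2. Without injury the 4 lower in the MTZ library were 0 and 11 in the same order. With 1 UMI in each, the 0 higher there were 4, and the 0 higher in the injured MTZ library were 2. No share of all genes is given beside these recounts, so they cannot be read against a background. Where btr09 had 0 UMIs on 1 side, no ratio was given. With TMM the median over all genes for injury moved from -0.19 to -0.00. Genes with few UMIs and the small number of other cells limit what depth can show.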
